A study of Homo sapiens with 36 samples.

Results

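The comparison set the CRISPR-activation control (ctrl-OE) against the CRISPR/Cas9 knockout control (ctrl-KO) in cultured human neural stem cells (hNSC). These are 12 of the 36 RNA-seq libraries of a study of the transcription factors MEIS1 and MEIS2, taken by their sample labels, 6 for each control. Genes were included with at least 10 counts summed over the 12 libraries, which left 18194 of the 28516 genes in the count table. Both controls were commercial hNSC grown in serum-free medium on a Geltrex coating, infected with lentivirus carrying a guide RNA that targets no human gene, and harvested 48 h later. The ctrl-OE cells received 3 viruses, which carried an sgRNA(MS2) backbone with a puromycin resistance gene, dCas9 fused to the activator VP64, and the MS2-p65-HSF1 helper protein. The ctrl-KO cells received 1 virus, lentiCRISPRv2, which carries catalytically active Cas9 and the guide together. The amount of virus also differed, so the protein system, the vectors and the viral load cannot be told apart. No untransduced library was analysed here, and a gene called higher in ctrl-OE can as well be read as lower in ctrl-KO. In the MEIS conditions the guides targeted MEIS1 or MEIS2 within the same 2 systems (MEIS1-OE, MEIS1-KO, MEIS2-OE and MEIS2-KO, 6 libraries each), and these served as further pairs that share no library with the controls.

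CRISPR-activation recruits transcriptional activation domains to a promoter through a Cas9 that no longer cuts DNA, whereas CRISPR knockout relies on a double-strand break by active Cas9 and its imprecise repair. Without a genomic target, neither system is meant to change a human gene. Both nevertheless add foreign protein, integrated viral DNA and viral RNA to the cell, to which cells can respond through interferon, stress and p53 pathways. Neural stem cells are dividing cells held in that state by SOX-family factors. They express nestin, an intermediate filament, and give rise to neurons and glia.

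The libraries held between 17598743 and 22940493 counts. At least 10 counts were found for 14678 to 14992 genes in ctrl-OE libraries and for 14053 to 14335 in ctrl-KO libraries, a difference of 605.5 in the mean (two-sided p = 0.00216 from an exact permutation of the libraries, which is the lowest value 6 against 6 can give; adjusted over 5 library properties, p = 0.00541). Total counts were 1649386 higher in the mean in ctrl-OE and did not pass the same exact permutation test (adjusted p = 0.148). The number of genes was not adjusted for depth, and its part in this difference was not tested. Markers of the labelled cell type were present: NES lay between 850 and 1664 counts scaled to the library size (CPM) over the 12 libraries and SOX2 between 91.0 and 323. Markers of other cell types were mostly low, with RBFOX3 of mature neurons at 0 to 1 count, PTPRC of microglia at 0 to 2 counts and FOXD3 of neural crest at 0 in all 12, but COL3A1 and COL1A2, which mesenchymal cells express strongly, were present, and the summed level of 6 mesenchymal markers was 272 to 447 CPM in ctrl-OE and 639 to 851 CPM in ctrl-KO. COL3A1 made up most of that sum, COL1A1 lay the other way (mean 55.7 against 36.3 CPM), and DCN was at 1 to 7 counts. The part of these markers in the results was not tested. TUBB3, an early neuronal tubulin, was at 2204 to 5480 counts and LIN28A, which pluripotent and early neural cells share, at 283 to 532 CPM. In bulk RNA, fewer cells of a type and less RNA per cell cannot be told apart.

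With an adjusted p below 0.05 and a log2 fold change beyond 0.58 (edgeR's quasi-likelihood test, Benjamini-Hochberg adjustment), 4235 genes were called, 23.3% of those tested. Of these, 2465 were higher in ctrl-OE (13.5% of genes tested) and 1770 were lower (9.73%), with a median log2 fold change over all genes of 0.04. Many called genes were weakly expressed, and 1877 of the 4235 had at least 5 CPM in the higher control. Under a stricter filter on low counts 1888 genes were higher and 1624 lower, so the excess of higher genes was smaller. At the adjusted p alone, 10083 genes passed (55.4%). Scaling by library totals alone moved the median of all genes up by 0.15, and 3296 genes were then higher and 1202 lower, so that 73.3% of the called genes were higher in place of 58.2%. Changes are given below relative to the trimmed mean of M values (TMM), and a list's count under an alternative is given where it differs by over 1.5 times. The labels do not say whether replicates came from separate cultures, so p-values measure the spread between these libraries, which may be technical.

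**Figure D1:**
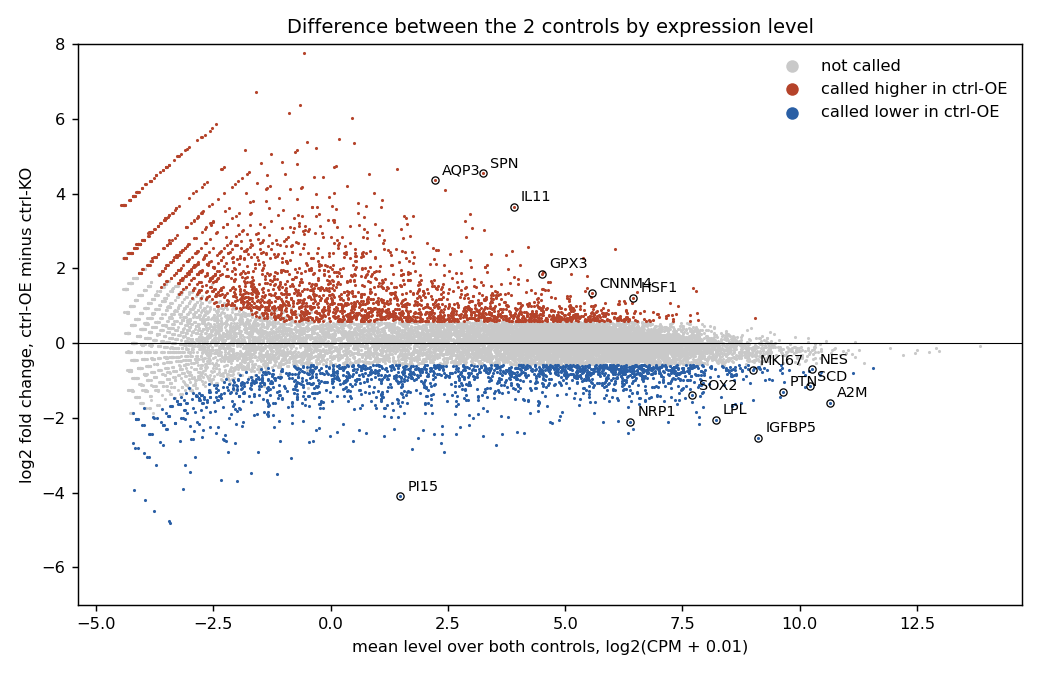
Log2 fold change of ctrl-OE over ctrl-KO (vertical axis) against the mean level over both controls (horizontal axis, log2 of CPM + 0.01), 1 point per gene. Called genes are coloured and 16 genes of the text are labelled; SPN (4.54) and AQP3 (4.36) lie far above zero at modest level, while PTN (-1.30) and A2M (-1.59) lie below it at high level.

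The gene with the smallest p among those higher in ctrl-OE was SPN (chr16:29674300-29682197, GRCh37), which encodes the leukocyte surface sialoglycoprotein CD43. SPN had 16.7 to 20.4 CPM in ctrl-OE libraries (median 17.6) and 0.462 to 1.15 CPM in ctrl-KO libraries (median 0.749). The groups were far apart, with a 23.3-fold higher level in ctrl-OE (log2 fold change 4.54 ± 0.13 SE, adjusted p = 1.55e-25). AQP3 (chr9:33441154-33447594), a channel for water and glycerol, ranged from 8.04 to 9.69 CPM against 0.289 to 0.579 CPM (4.36 ± 0.17, adjusted p = 3.13e-22). SERPINB9 (chr6:2887504-2903543), an inhibitor of granzyme B, had 7.86 to 11.8 CPM against 0.336 to 0.895 CPM (4.08 ± 0.16, adjusted p = 4.84e-22). These 3 genes were near absent in the knockout control and moderately expressed in the activation control.

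IL11, a cytokine of the interleukin-6 family, had 23.5 to 31.3 CPM in ctrl-OE and 1.45 to 2.83 CPM in ctrl-KO, 12.6-fold higher. CD74, the invariant chain of MHC class II, was at 33.3 to 39.5 CPM against 7.52 to 11.0 CPM. GPX3, a secreted glutathione peroxidase, was at 31.4 to 38.9 CPM against 8.58 to 10.9 CPM. In none of these genes did a ctrl-OE library fall within the range of the ctrl-KO libraries. The other genes with the smallest p were CNNM4, a magnesium transporter (2.53-fold), PPIC, a cyclophilin (7.09-fold), GNG3, a G-protein gamma subunit (5.08-fold), ADAMTSL4, a matrix protein (8.21-fold), SEMA4F, a semaphorin (2.04-fold), and STX3, a syntaxin (5.19-fold). LPPR4, a phospholipid phosphatase-related membrane protein, and HID1 were among the largest changes at 25.1-fold and 11.0-fold, LPPR4 resting on 0 to 0.590 CPM in ctrl-KO.

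Among genes lower in ctrl-OE, the 3 with the smallest p were PTN, NRP1 and A2M. PTN (chr7:136912088-137028520), the growth factor pleiotrophin, had 444 to 492 CPM in ctrl-OE (median 458) and 1098 to 1183 CPM in ctrl-KO (median 1120), with a log2 fold change of -1.30 ± 0.03 (adjusted p = 5.26e-27). NRP1 (chr10:33466420-33625190), a receptor for semaphorins and VEGF, had 28.2 to 35.9 CPM against 131 to 149 CPM (-2.10 ± 0.06, adjusted p = 1.94e-26). A2M (chr12:9220260-9268825), a broad protease inhibitor, had 706 to 868 CPM against 2246 to 2554 CPM (-1.59 ± 0.05, adjusted p = 1.25e-24). Within each control these 3 genes varied little beside the difference between controls.

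EFNB2, a ligand of Eph receptors, was 2.17-fold lower in ctrl-OE, the insulin-like growth factor binding proteins IGFBPL1 and IGFBP3 were 2.05-fold and 3.10-fold lower, and PODXL, a sialomucin, was 2.09-fold lower. LPL, lipoprotein lipase, was 4.13-fold lower, as were ADCY2, an adenylate cyclase (4.16-fold), GRIA1, an AMPA receptor subunit (4.29-fold), PLD5 (5.28-fold) and the basement membrane protein NID2 (3.95-fold). By size, the largest decreases were PI15, a secreted protease inhibitor (17.1-fold), DIO3, which inactivates thyroid hormone (7.58-fold), SSUH2 (7.06-fold), NTRK2, the receptor of BDNF (6.63-fold), B3GALT2, a galactosyltransferase (6.43-fold), and IGFBP5 (5.80-fold). IGFBP5 had 88.6 to 273 CPM in ctrl-OE and 922 to 977 CPM in ctrl-KO, so its libraries spread over a wide range in the activation control and a narrow one in the knockout control.

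**Figure D2:**
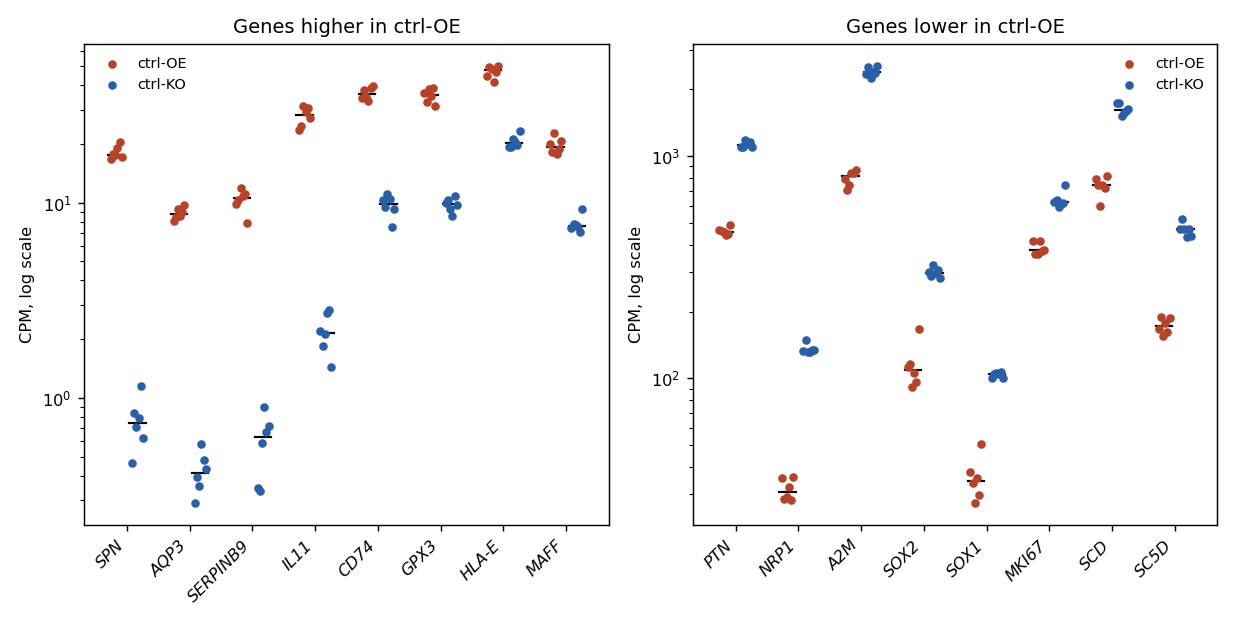
CPM on a log scale for 16 genes in each of the 6 ctrl-OE (red) and 6 ctrl-KO (blue) libraries; points are libraries and bars are group medians. For each gene shown, the ranges of the groups are apart, from SPN (16.7 to 20.4 against 0.462 to 1.15 CPM) to SC5D (155 to 190 against 433 to 520 CPM).

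The activation helper carries human protein segments, and reads from the vector and from the endogenous gene cannot be told apart in gene counts. HSF1, whose activation domain is part of the helper, had 86.2 to 186 CPM in ctrl-OE and 40.4 to 63.0 CPM in ctrl-KO (1.22 ± 0.17, adjusted p = 1.22e-07). RELA, the source of the p65 domain, had 57.5 to 70.2 CPM against 47.3 to 57.6 CPM, overlapped between the groups and was not called (0.23 ± 0.07, adjusted p = 0.00716). EEF1A1, whose promoter drives many vectors of this kind, was not called (-0.22 ± 0.03). The factors the study targeted stayed below the fold threshold between the controls. MEIS1 had 15.7 to 18.9 CPM in ctrl-OE and 23.8 to 27.9 CPM in ctrl-KO, without overlap (-0.52 ± 0.07, adjusted p = 3.44e-08), and MEIS2 had 20.5 to 24.1 against 23.6 to 27.3 CPM, with overlap (-0.19 ± 0.05, adjusted p = 0.00123). Of 11 genes of the TALE homeobox class, to which MEIS proteins and their partners belong, 2 were lower and none higher, with PKNOX2 at 47.1 to 63.6 against 87.9 to 95.6 CPM (-0.80 ± 0.05).

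**Figure D3:**
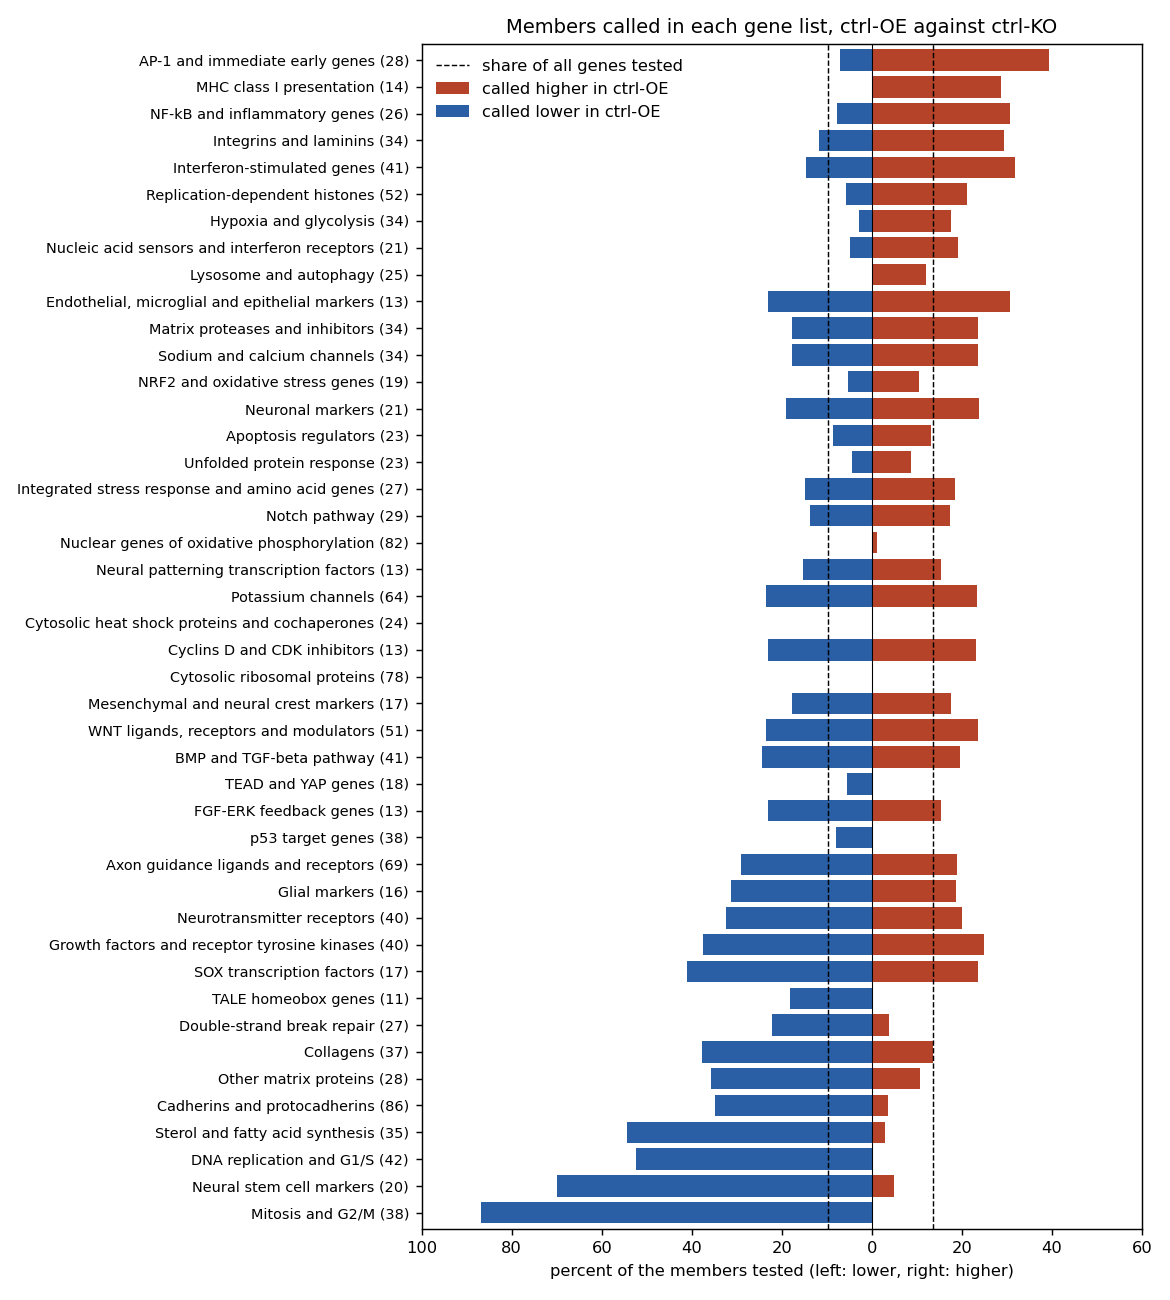
Share of each list's tested members (number in brackets) called higher (red, right) or lower (blue, left) in ctrl-OE, for lists with at least 10 tested members; dashed lines mark the shares over all genes tested, 13.5% higher and 9.73% lower. Mitosis genes (33 of 38 lower) stand at the bottom and immediate early genes (11 of 28 higher) at the top.

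Proliferation genes were lower in ctrl-OE. Of 38 genes of mitosis and G2/M, which drive chromosome condensation, spindle assembly and segregation, 33 were called lower in ctrl-OE and none higher, with a median log2 fold change of -0.73 beside 0.04 over all genes tested. All 38 were negative with an adjusted p below 0.05, where 25.9% of all genes tested were, and in all 38 the libraries of the controls did not overlap, against 17.5% of all genes in that direction. MKI67, the proliferation antigen Ki-67, had 362 to 416 CPM in ctrl-OE and 592 to 741 CPM in ctrl-KO (-0.72 ± 0.06, adjusted p = 1.69e-12). KIF2C, a microtubule-depolymerising kinesin, had 127 to 146 against 223 to 240 CPM. HJURP, the chaperone that places the centromeric histone, and FOXM1, a transcription factor of G2/M genes, were 1.69-fold and 1.58-fold lower. Scaled by library totals alone, 19 of the 38 passed the fold threshold, with a median of -0.58, and MKI67 and FOXM1 lost their calls (-0.58 and -0.51).

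Of 42 genes of DNA replication and the G1/S transition, 22 were lower and none higher, with a median of -0.58, and 41 of them were negative with an adjusted p below 0.05. TYMS, thymidylate synthase, had 296 to 324 CPM in ctrl-OE and 464 to 495 CPM in ctrl-KO. MCM4, a subunit of the replicative helicase, had 270 to 311 against 462 to 481 CPM, and GINS4, part of the same helicase complex, was 1.59-fold lower. Many members lay close to the fold threshold, and with library totals alone 4 of the 42 were called (median -0.44), and TYMS (-0.50), MCM4 (-0.55) and GINS4 (-0.52) were not among them. Among 13 cyclins D and inhibitors of cyclin-dependent kinases, 3 were higher and 3 were lower. CCND2 (-0.65) and CDKN1C (-1.11) were among those lower, and CCND3 (0.62) and CDKN2D (0.80) among those higher. With the trend on GC content removed 1 was higher and 1 lower, and with library totals alone 1 was lower.

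Genes of mitosis often share promoter letters named CHR (TTTGAA) and CCAAT, and 5 promoters are shown for the called members with the smallest p that had an entry in RefSeq's promoter table (GRCh38.p14). Each is the stretch of 250 bases that ends at the base before the gene's start, written along the gene's strand, with CHR or CCAAT matches on either strand in capitals.
KIF2C (chr1:44739587-44739836, plus strand): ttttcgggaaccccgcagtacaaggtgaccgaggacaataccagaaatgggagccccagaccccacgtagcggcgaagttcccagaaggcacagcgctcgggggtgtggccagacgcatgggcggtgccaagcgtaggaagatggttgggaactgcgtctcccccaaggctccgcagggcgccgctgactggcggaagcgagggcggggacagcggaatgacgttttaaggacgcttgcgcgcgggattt
HJURP (chr2:233854536-233854785, minus strand): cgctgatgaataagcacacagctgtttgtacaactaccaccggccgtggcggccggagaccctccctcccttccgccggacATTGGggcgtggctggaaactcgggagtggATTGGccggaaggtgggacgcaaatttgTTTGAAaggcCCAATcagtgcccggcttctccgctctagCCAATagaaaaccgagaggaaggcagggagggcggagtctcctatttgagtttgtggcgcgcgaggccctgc
BUB1 (chr2:110678064-110678313, minus strand): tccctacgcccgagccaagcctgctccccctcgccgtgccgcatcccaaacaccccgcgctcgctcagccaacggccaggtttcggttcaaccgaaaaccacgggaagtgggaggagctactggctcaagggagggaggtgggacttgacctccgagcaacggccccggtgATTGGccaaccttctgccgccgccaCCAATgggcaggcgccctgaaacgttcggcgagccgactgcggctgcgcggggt
CCNB1 (chr5:69166900-69167149, plus strand): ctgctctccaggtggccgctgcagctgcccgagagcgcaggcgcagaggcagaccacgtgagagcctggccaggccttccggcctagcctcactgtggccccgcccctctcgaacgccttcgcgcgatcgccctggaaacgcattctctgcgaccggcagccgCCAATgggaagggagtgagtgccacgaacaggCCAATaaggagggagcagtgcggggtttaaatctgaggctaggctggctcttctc
BUB1B (chr15:40160819-40161068, plus strand): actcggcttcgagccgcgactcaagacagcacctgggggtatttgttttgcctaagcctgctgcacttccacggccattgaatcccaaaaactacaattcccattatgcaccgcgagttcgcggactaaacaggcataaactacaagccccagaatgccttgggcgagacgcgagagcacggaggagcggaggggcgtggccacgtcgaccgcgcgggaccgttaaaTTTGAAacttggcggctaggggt

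The log2 fold changes of these 5 genes were -0.76, -0.76, -0.80, -0.70 and -0.85 in the order shown. HJURP held 1 CHR and 4 CCAAT matches, BUB1 and CCNB1 held 2 CCAAT matches each, BUB1B held 1 CHR match 23 bases before the start, and KIF2C held neither. Of the 27 called members of the list with an entry, 14 held both motifs (51.9%), against 3.58% of the 12730 genes tested that had an entry and 1325 of all 27305 promoters in the table (4.85%). Members tested, called or not, held both in 15 of 32 cases (46.9%). Most of these 32 are the called members themselves, so these shares cannot separate a trait of the list from the difference between the controls. Both motifs stood together in 7.79% of the 1206 promoters of all genes called lower, which include the called mitosis genes. Among the 1687 promoters of all genes called higher the share was 1.96%. Letters in a window describe a sequence and do not show that a factor bound it.

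Of the genes of double-strand break repair, 6 of 27 were lower in ctrl-OE and 1 was higher. POLQ, the polymerase of end joining by microhomology, had 25.4 to 31.4 CPM in ctrl-OE and 48.6 to 59.5 CPM in ctrl-KO. RAD54L (-0.82), which acts in homologous recombination, was also lower, whereas LIG4, the ligase of non-homologous end joining, was higher (0.67). With library totals alone 2 of the 27 were lower. Among 38 target genes of p53, 3 were called lower (7.89%, near the share over all genes) and none higher (1 with library totals alone), with a median of -0.24. At the adjusted p alone 20 of the 38 were lower and 3 higher, beside 25.9% and 29.5% of all genes tested. In 15 of the 38 the libraries were apart with ctrl-OE lower, as in 17.5% of all genes tested. With library totals alone the median of the 38 was -0.09, so the size of these changes depends on the scaling. In the MEIS1 and MEIS2 pairs 6 and 13 of the 38 were called lower, beside 10.6% and 9.70% of all genes tested. DDB2 (-0.76), a damage sensor, and PMAIP1 (-1.11), which encodes the apoptosis activator NOXA, were lower. CDKN1A, the cell cycle inhibitor p21, overlapped between the controls at 300.5 to 363 against 308 to 399.5 CPM and was not called (-0.09 ± 0.08, adjusted p = 0.319). MDM2, a ubiquitin ligase, was at 286 to 356 against 357 to 447 CPM, below the fold threshold (-0.28 ± 0.07, adjusted p = 6.43e-04).

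Genes that mark neural stem cells were lower in the activation control. Of 20 members tested, 14 were lower and 1 was higher, with a median of -0.69. SOX2 (chr3:181429713-181432224), a factor that holds the stem cell state, had 91.0 to 166 CPM in ctrl-OE (median 109) and 283 to 323 CPM in ctrl-KO (median 298), 2.62-fold lower in ctrl-OE (-1.39 ± 0.11, adjusted p = 1.33e-13). SOX1 had 27.4 to 50.8 against 100.3 to 106 CPM (-1.53 ± 0.09, adjusted p = 1.91e-16). NES had 850 to 1182 against 1314 to 1664 CPM (-0.69 ± 0.08) and PAX6, a regulator of cortical progenitors, 16.8 to 24.1 against 34.5 to 38.4 CPM (-0.84 ± 0.10). The libraries of each of these genes were apart, and in SOX2 the ctrl-OE libraries spread over a wider range, on the log scale, than those of ctrl-KO.

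Also lower were POU3F2, a neural POU factor (1.87-fold), and PROM1, which encodes CD133 (1.61-fold). The member that was higher was SOX9, a factor of stem cells and glia, at 29.5 to 43.2 against 17.2 to 25.9 CPM (0.66 ± 0.13, adjusted p = 2.47e-05), a call lost without replicate 2 (0.58, at the fold threshold). Across the 17 SOX factors tested, 7 were lower and 4 higher (2 under a stricter filter on low counts), and SOX11, at 109.8 to 157 against 249.5 to 274 CPM, and SOX5 (-1.13) were among those lower. Scaled by library totals alone, 9 of the 20 stem cell markers were lower, and NES (-0.55) and PROM1 (-0.54) lost their calls.

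Markers of differentiated cells did not move in a single direction. Among 21 neuronal markers 5 were higher and 4 lower. MAP2, a dendritic microtubule protein, was 2.85-fold lower at 235 to 295 against 709 to 807 CPM. SNAP25 (-1.40) and SYT1 (-0.69), which act in vesicle release, were lower (SYT1 not with library totals alone, -0.55), while SLC17A7, a glutamate transporter of vesicles (3.04), and SYP, synaptophysin (1.40), were higher from below 3 CPM in ctrl-KO. DCX, a marker of young neurons, was under 2 CPM in all 12 libraries and overlapped between the groups (-1.13 ± 0.31). Among 16 glial markers 3 were higher (1 under the stricter filter) and 5 lower. SLC1A3, a glutamate transporter of radial glia, was at 5.75 to 11.97 against 24.1 to 28.0 CPM, and GJA1, connexin 43, was 2.34-fold lower. GFAP, the astrocyte filament, was at or under 0.326 CPM in all 12 libraries.

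Lipid synthesis genes were lower in ctrl-OE. Of 35 genes of sterol and fatty acid synthesis, 19 were lower and 1 was higher, with a median of -0.60, and 34 of the 35 had a negative log2 fold change. SCD, which makes monounsaturated fatty acids, had 597 to 814 CPM in ctrl-OE and 1521 to 1742 CPM in ctrl-KO (-1.15 ± 0.06, adjusted p = 1.79e-18). HMGCS1, which makes the precursor of mevalonate, had 571 to 757 against 1392 to 1701 CPM (-1.17 ± 0.07, adjusted p = 1.52e-16). SC5D, a late enzyme of cholesterol synthesis, had 155 to 190 against 433 to 520 CPM (-1.43 ± 0.08, adjusted p = 5.37e-17). The exception was TM7SF2, a sterol reductase, at 69.9 to 105 against 43.1 to 61.2 CPM (0.64 ± 0.11), a call lost without replicate 2 (0.56), without replicate 6 (0.56) and with the GC trend removed (0.39). Library totals alone left 11 of the 35 lower.

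Genes of adhesion and the matrix were more often lower than higher. Among 86 cadherins and protocadherins 30 were lower and 3 higher (5 with library totals alone or without replicate 4), with a median of -0.44. PCDH9 had 20.4 to 25.97 CPM in ctrl-OE and 63.5 to 76.6 CPM in ctrl-KO, PCDH19 was 2.71-fold lower and CDH11 2.91-fold lower, while PCDHAC1 was 2.06-fold higher. Of 12 protocadherins outside the gene clusters 9 were lower (median -1.25), and of 56 clustered ones, whose isoforms share exons so that reads could be split between them, 12 were lower and 2 higher (median -0.41). Collagens were lower in 14 of 37 and higher in 5, or in 3 either with the GC trend removed or without ctrl-OE replicate 6 and ctrl-KO replicate 2. COL3A1 had 143 to 237 against 494 to 646 CPM, and COL4A5, a basement membrane chain, was 1.97-fold lower, while COL8A2 was 8.85-fold higher from 0.112 to 0.474 CPM in ctrl-KO.

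Other matrix proteins were lower in 10 of 28 and higher in 3. FN1, fibronectin, was 1.77-fold lower and VCAN, a large proteoglycan, 1.99-fold lower. Among integrins and laminins more members were called higher, 10 of 34 against 4 lower, but 19 of the 34 were negative (median -0.08). ITGA5, the fibronectin receptor chain, had 213 to 244 against 96.6 to 128 CPM, while the laminin receptor chain ITGA6 was 2.00-fold lower, LAMA1 2.27-fold lower and LAMA4 2.53-fold lower. Axon guidance genes moved in both directions, 20 of 69 lower and 13 higher. DCC, the netrin receptor, had 28.3 to 34.3 against 85.7 to 97.1 CPM, whereas SEMA3G (3.05) and EFNA1 (3.66) were higher from levels under 1 CPM in ctrl-KO.

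Innate immune lists held a larger share of genes called higher than all genes tested did. So did other lists, such as integrins and laminins (29.4%) and potassium channels (23.4%). Of 41 interferon-stimulated genes 13 were higher and 6 lower, with a median of 0.22. The share called lower (14.6%) was also above that of all genes tested (9.73%). SAMD9, an antiviral factor, had 8.52 to 10.8 CPM in ctrl-OE and 2.48 to 3.69 CPM in ctrl-KO (1.62 ± 0.12, adjusted p = 2.60e-14). HERC6 (1.85) and IFI35 (2.14) were higher from below 1 CPM. IFITM1, a membrane factor that blocks viral entry, was lower at 30.7 to 46.1 against 70.0 to 103 CPM (-1.23 ± 0.10). IFIT1 was at 5.43 to 7.72 against 4.42 to 6.41 CPM, overlapped and was not called (0.23 ± 0.09, adjusted p = 0.0367). ISG15 overlapped at 3.69 to 11.7 against 1.51 to 4.01 CPM and was called (1.10 ± 0.30, adjusted p = 0.00168).

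Among 21 nucleic acid sensors and interferon receptors 4 were higher and 1 lower (2 without replicate 1 or 5). SAMHD1, which depletes nucleotides and restricts retroviruses, had 26.5 to 31.9 against 9.56 to 11.9 CPM (1.42 ± 0.07, adjusted p = 2.59e-19). TMEM173, the adaptor STING, was 2.90-fold higher, and AIM2, a sensor of cytosolic DNA, was 2.49-fold lower. Of 14 genes of MHC class I presentation 4 were higher and none lower (median 0.41), with HLA-E at 41.3 to 50.2 against 19.2 to 23.4 CPM, B2M 1.51-fold higher and the peptide transporter TAP1 1.61-fold higher. With the trend on GC content removed, 2 of the 14 were higher and TAP1 (0.57) was not among them, and B2M lost its call without replicate 3 (0.58) or 4 (0.57). Of 26 NF-kB and inflammatory genes 8 were higher and 2 lower. RELB, an NF-kB subunit, had 3.61 to 6.35 against 1.56 to 2.39 CPM and ICAM1 42.2 to 51.2 against 23.5 to 26.4 CPM, while PTX3, a secreted pattern recognition molecule, had 170 to 237 against 568 to 622 CPM.

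Immediate early genes, which respond to growth factor and stress signals, were higher in 11 of 28 cases and lower in 2 (median 0.46). With the GC trend removed 10 were higher and the median was 0.24. With library totals alone, without replicate 4 or without replicate 5, 1 was lower and EGR2 lost its call. MAFF had 17.8 to 22.8 against 7.04 to 9.30 CPM, FOSB 1.51 to 2.56 against 0.386 to 0.947 CPM, and DUSP5, a phosphatase of ERK, was 1.73-fold higher. ATF3, also a stress gene, was lower at 15.1 to 19.5 against 31.9 to 43.0 CPM. EGR2 was lower as well, with overlapping libraries (-0.67 ± 0.23, adjusted p = 0.0144). Among 40 growth factors and receptor tyrosine kinases 10 were higher and 15 lower. VGF, a neurosecretory protein, was 4.83-fold higher and HBEGF, a ligand of the EGF receptor, 3.12-fold higher. Of its receptor family ERBB3 was 3.70-fold higher and ERBB4 3.67-fold lower.

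In signalling pathways of development, members were called in both directions. Of 29 Notch pathway genes 5 were higher (17.2%) and 4 lower (13.8%), near the shares over all genes, with the ligand JAG1 at 54.6 to 62.7 against 156 to 175 CPM and the ligand DLL1 at 2.42 to 10.6 against 13.8 to 16.1 CPM. Of 41 BMP and TGF-beta genes 8 were higher and 10 lower, with the ligand TGFB1 higher at 31.0 to 45.4 against 11.0 to 15.04 CPM and BMP7 2.01-fold lower. Of 51 WNT ligands, receptors and modulators 12 were higher and 12 lower, and SFRP1, a secreted WNT antagonist, was 2.03-fold lower. Potassium channels were higher in 15 of 64 and lower in 15, and neurotransmitter receptors higher in 8 of 40 and lower in 13. Among the genes kept by a stricter filter on low counts, 9 potassium channels were higher and 8 receptors lower. Under that filter 5 receptors were higher. Members that left the test and members that lost their call were not told apart in these counts. By library totals alone, 2 Notch genes and 6 BMP and TGF-beta genes were lower, and without ctrl-OE replicate 6 and ctrl-KO replicate 2, 3 Notch genes were higher.

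Housekeeping groups differed little in fold. None of 78 cytosolic ribosomal protein genes and none of 24 heat shock proteins and cochaperones was called, and 1 of 82 nuclear genes of oxidative phosphorylation was (4 with library totals alone, 2 without replicate 4). At an adjusted p alone, 48 ribosomal protein genes were lower and 1 higher, with a median of -0.13 that became 0.02 with library totals alone, so their direction depends on the scaling. Their share of all counts was 4.89 to 5.17% in ctrl-OE and 4.91 to 5.11% in ctrl-KO (exact permutation test, adjusted p = 0.519). With library totals alone 2 heat shock genes were higher, and without replicate 3, 1 was. Of 25 lysosomal genes 3 were called higher (a share below the 13.5% of all genes tested) and none lower, CTSB (0.77) and NEU1 (0.80) among them, and 7 with library totals alone. Positive log2 fold changes were found for 21 of the 25 and for 53.8% of all genes tested. Of 34 genes of hypoxia and glycolysis 6 were higher and 1 lower, with the lactate exporter SLC16A3 at 11.1 to 21.5 against 1.12 to 2.21 CPM.

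Replication-dependent histone genes were higher in 11 of 52 and lower in 3 (1 under the stricter filter), with HIST1H3F 2.98-fold and HIST2H2BE 1.81-fold higher. Without replicate 6 of every condition 7 were higher. Their mRNAs mostly lack a poly(A) tail and are near-identical in sequence, and the libraries were poly(A) selected. Together they took 0.00775 to 0.00865% of counts in ctrl-OE and 0.00484 to 0.00572% in ctrl-KO (exact permutation test, adjusted p = 0.00541). These shares are so small that the values describe the tailed or carried-over remainder of this gene family.

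Some genes were near absent from 1 control, by limits on counts and not by a test. With at most 3 counts in every library of one control and at least 10 in every library of the other, 38 genes passed with ctrl-OE as the higher control and none with ctrl-KO. Only 2 of the 38 had 0 counts in all ctrl-KO libraries, and the others had up to 15 counts summed over them. With at least 20 counts the numbers were 13 and 0. Their mean level in ctrl-OE was 0.582 to 2.76 CPM, so all were weakly expressed there. VWA5B2 had 37 to 85 counts in ctrl-OE libraries and 7 counts over all 6 ctrl-KO libraries, and MCOLN3, a lysosomal cation channel, had 27 to 81 and 4. ALOX15, a lipoxygenase, had 22 to 37 counts per ctrl-OE library and 0 in all ctrl-KO libraries, at least 49.96-fold higher against a floor of 3 counts over the group, and IL10RA, a cytokine receptor chain, had 11 to 24 and 0, at least 24.3-fold higher. These 4 were chosen after their values were seen. In the MEIS1 pair 15 of the 38 met the same limits, in the MEIS2 pair 16, and in both 8. How many of all genes tested met these limits in the MEIS pairs was not counted.

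The same system difference was also measured in libraries whose guides targeted MEIS1 or MEIS2. Of the 2465 genes called higher in ctrl-OE, 1845 were called higher in MEIS1-OE against MEIS1-KO (74.8%, and 73.7% of those called higher there), where 13.8% of genes tested were called higher. Of the 1770 lower genes, 1381 were called lower (78.0%, and 71.6% of those called lower there), where 10.6% of genes tested were. In MEIS2-OE against MEIS2-KO, 1622 of the higher genes (65.8%, and 78.1% of those there) and 1250 of the lower genes (70.6%, and 70.8% of those there) were called in the same direction, against 11.4% and 9.70% of genes tested. Called in opposite directions were 2 genes in the MEIS1 pair and 9 in the MEIS2 pair. In all 3 pairs 1411 genes were higher and 1129 lower in the activation system. MEIS levels differ between the conditions of a MEIS pair as well, so those pairs hold a targeted effect besides the system.

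The lists were counted in the same pairs. Mitosis genes were lower in 37 of 38 in the MEIS1 pair and 31 of 38 in the MEIS2 pair, replication genes in 22 and 18 of 42, and sterol genes in 25 and 15 of 35. Stem cell markers were lower in 10 and 11 of 20 and immediate early genes higher in 12 and 11 of 28. A test of the difference between differences passed at an adjusted p below 0.05 for 267 of the 4235 called genes against the MEIS1 pair (6.30%) and for 238 against the MEIS2 pair (5.62%), beside 4.13% and 3.12% of all genes tested. These tests use the control libraries on one side, so both share them.

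**Figure D4:**
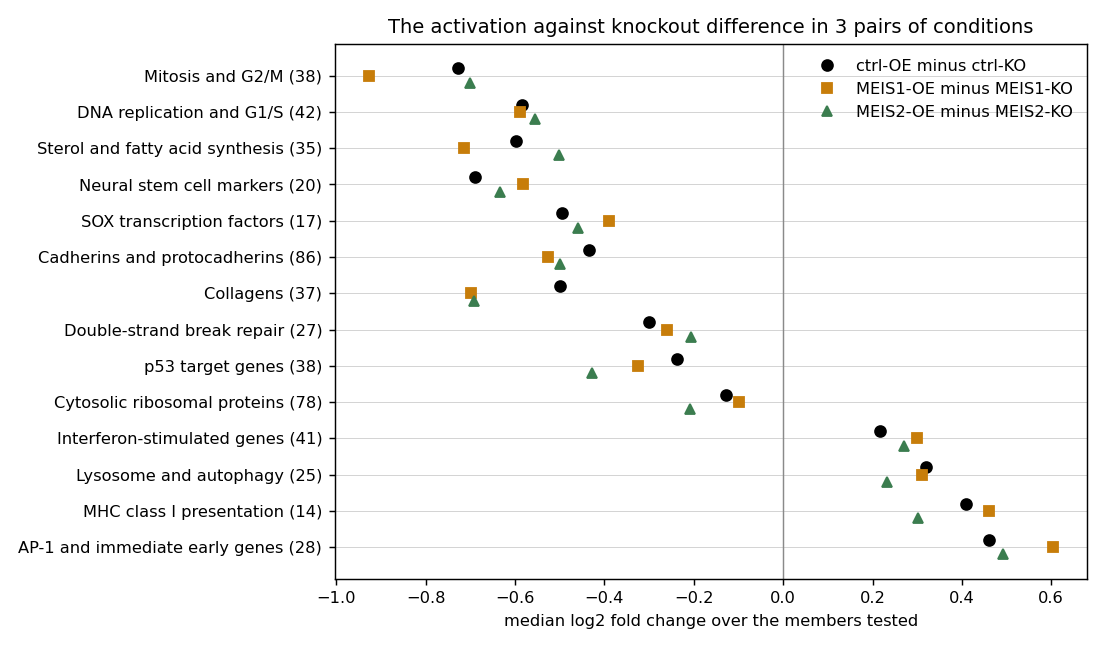
Median log2 fold change over the tested members of 14 lists (vertical axis, number in brackets) for activation against knockout in the controls (circles), the MEIS1 pair (squares) and the MEIS2 pair (triangles). For mitosis genes the medians are -0.73, -0.93 and -0.70, and for immediate early genes 0.46, 0.60 and 0.49.

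Genes that span a long stretch of the genome were lower in ctrl-OE. Positions were matched for 16059 of the 18194 genes in GENCODE on GRCh37, and 12842 of these had at least 1 CPM in a control. In the longest of 10 bins of equal size, from 175215 to 2304997 bases, 401 of 1285 genes were lower (31.2%) and 36 higher (2.80%), with a median of -0.30. In the shortest bin, up to 5858 bases, 82 were lower (6.38%) and 231 higher (18.0%), with a median of 0.13. In bin 5, counted from the shortest, 6.70% were lower and 10.3% higher. In each library the median deviation of the longest bin from the gene means lay between -0.19 and -0.12 in ctrl-OE and between 0.11 and 0.22 in ctrl-KO, without overlap. The longest bin had a median of -0.37 in the MEIS1 pair and -0.27 in the MEIS2 pair. In the controls it was -0.27 once the trend on GC content was removed from each library. The shortest bin had 0.15 and 0.05 in these pairs, and 0.04 in the controls with the GC trend removed. Genes were also split into 4 groups by length. At the lowest of 4 levels of expression the shortest group had a median of 0.34 and at the highest -0.06. The longest group had -0.20 and -0.19. At the lowest of 4 levels of GC content the shortest group had -0.01 and at the highest 0.24. The longest group had -0.12 and -0.05. The median of short genes thus varied with expression and GC content.

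The GC content of exons also moved with the difference, but not in every library. In the bin with the highest GC content the median was 0.27, with 27.8% higher and 2.65% lower, and in the lowest bin -0.05. The gap between the 20% of genes with the highest and the 20% with the lowest GC content, as a deviation from the gene means on the log2 scale, was -0.16 to 0.58 over ctrl-OE libraries and -0.57 to 0.14 over ctrl-KO libraries. The groups overlapped, with ctrl-OE replicate 6 and ctrl-KO replicate 2 farthest apart. Chromosome medians ran from -0.13 for chromosome 13 to 0.16 for chromosome 19, which had a median GC content of 58.3% against 42.2% for chromosome 13. With the GC trend removed they were -0.07 and 0.06, and chromosome 18 was then lowest at -0.10, from -0.12 before. With the trend removed, 2048 genes were higher and 1574 lower, and without the 2 libraries farthest apart 2205 and 1787.

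**Figure D5:**
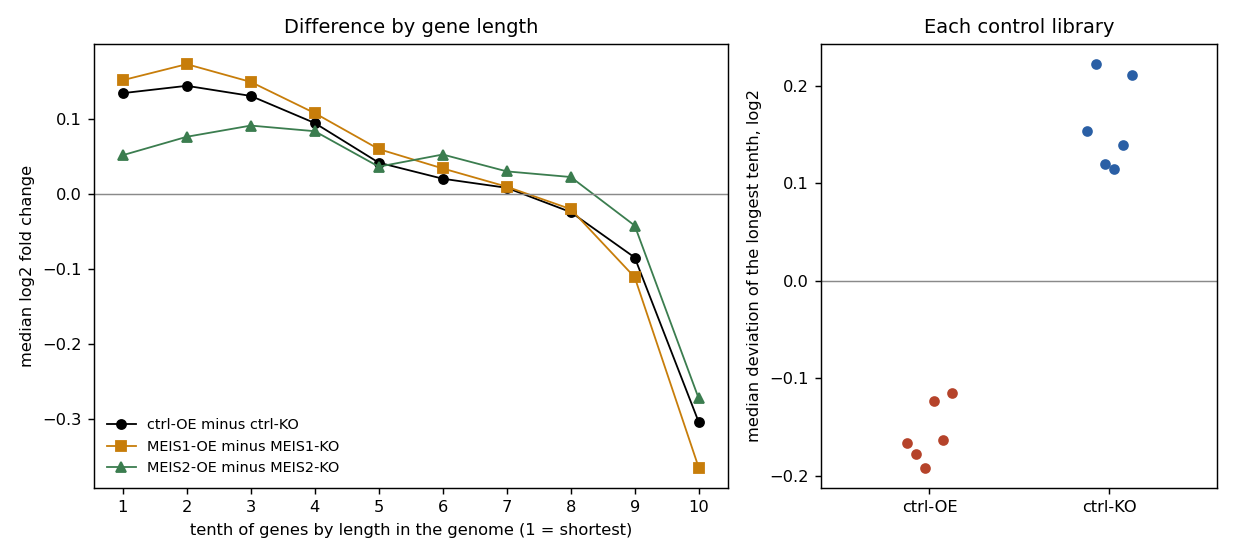
Left, median log2 fold change by bin of genes ordered by their length (10 bins) in the genome, for the controls (circles), the MEIS1 pair (squares) and the MEIS2 pair (triangles); right, the median deviation of the longest bin in each of the 12 control libraries. Without removal of the GC trend, the medians in the controls fall from 0.13 in the shortest to -0.30 in the longest bin. On the right, every ctrl-OE library lies below every ctrl-KO library.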

How the data were processed

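RNA was sequenced from 36 libraries of 6 conditions, of which the 12 control libraries are compared here. The deposited table holds whole read counts per gene and library, which the authors made without normalization from stranded, poly(A)-selected libraries aligned to hg19. The submitters' processing notes name STAR 2.7.0a and Trimmomatic 0.39, while the design text names STAR 2.4.2a and HTSeq 0.6.0. The annotation and the strand setting of the counting are not given in the sources used here, so overlapping and antisense genes may share reads. No column of the table was left unused.

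Groups came from the sample labels. Genes with at least 10 counts summed over the control libraries were tested in edgeR 4.0.16 (R 4.3.3) with TMM factors, 1 quasi-likelihood fit of all 6 conditions and Benjamini-Hochberg adjustment over all genes tested. Calls needed an adjusted p below 0.05 and a log2 fold change beyond 0.58 (prior count 0.125). CPM used TMM-scaled library sizes. Library properties were compared by exact permutation of the libraries. Named genes were the 12 with the smallest p and the 6 with the largest change (at least 5 CPM in the higher control) in each direction, up to 3 called members of each list in each direction, and a set of fixed genes. BUB1, CCNB1, BUB1B and cell type markers are named besides. The gene lists and the comparison itself were chosen with earlier results of these data known. Positions came from GENCODE on GRCh37 and promoters from RefSeq on GRCh38.p14, matched by symbol for 69.97% of genes tested. On simulated counts for 17947 genes of this comparison, edgeR recovered 199 of 200 changed genes with 3 false calls, and DESeq2 1.42.0 recovered 199 with 1. The changed genes were few, none at very low counts, with folds well beyond the threshold in both directions. The spread was the same for every gene, without a GC trend or a shift in scaling. The simulation therefore does not test calls near the fold threshold, at low counts or under another scaling. No libraries were duplicates. Alternatives were other scalings and filters, DESeq2, a replicate block, fewer libraries, other thresholds and, chosen after seeing the data, removal of the GC trend and of the 2 libraries farthest apart in it. Mitochondrially encoded genes were not analysed here. Some genes within the rule for named genes are not reported here.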

Additional observations from a re-analysis of the deposited data

Results flagged for a closer look

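In 18 of 272 groups of 6 libraries (over the genes and library properties of the text), 1 library lay apart from the other 5 by more than Dixon's critical value; chance flags about 1 in 20 groups. Of these, 7 were ctrl-OE replicate 6 and 4 ctrl-KO replicate 6. In ctrl-KO replicate 6 it concerned ADCY2 (50.7 CPM), MAFF (9.30 CPM), MKI67 (741 CPM) and VCAN (1026 CPM). In ctrl-OE replicate 6 it concerned CDKN1C (4.19 CPM), GJA1 (124 CPM), ISG15 (11.7 CPM), NES (1182 CPM), PCDH19 (47.2 CPM) and SOX2 (166 CPM). In ctrl-OE replicate 6 the 10 top genes took 5.62% of counts. In ctrl-OE replicate 2 it concerned CNNM4 (62.0 CPM). In ctrl-OE replicate 3 it concerned DUSP5 (17.5 CPM) and MEIS1 (15.7 CPM). In ctrl-KO replicate 3 it concerned GFAP (0.177 CPM). In ctrl-OE replicate 5 it concerned LPPR4 (6.96 CPM). In ctrl-KO replicate 2 it concerned NRP1 (149 CPM) and PROM1 (168 CPM).

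For some named genes the difference between the systems was not the same with a MEIS guide (edgeR's test of the difference between differences, adjusted p below 0.05). The control value is given first and the value in the MEIS pair second, both as log2 fold changes. Against the MEIS1 pair these were ADCY2 (-2.06, -2.46), BMP7 (-1.01, -1.45), COL4A5 (-0.98, -1.26), DCC (-1.54, -1.86), EFNB2 (-1.12, -0.89), ERBB3 (1.89, 2.75), ERBB4 (-1.87, -2.53) and GINS4 (-0.67, -0.84). Further genes against the MEIS1 pair were GNG3 (2.34, 2.99), HBEGF (1.64, 0.93), ICAM1 (0.94, 1.95), IGFBP3 (-1.63, -1.98), IGFBPL1 (-1.03, -0.35), KIF2C (-0.76, -0.97), LPL (-2.05, -1.48) and MEIS1 (-0.52, 5.12). Further genes against the MEIS1 pair were NID2 (-1.98, -2.40), PKNOX2 (-0.80, -1.12), PLD5 (-2.40, -2.87), PTX3 (-1.63, -1.14), SOX11 (2.001-fold lower in the controls, -0.67 in the pair), SPN (4.54, 3.76), SYP (1.40, 2.07) and VCAN (-0.99, 0.038). Against the MEIS2 pair these were A2M (-1.59, -1.31), B3GALT2 (-2.69, -0.92), BMP7 (-1.01, -1.44), CD74 (1.91, 1.16), CDKN1A (-0.09, -0.60), COL1A1 (0.62, -0.54), EFNB2 (-1.12, -0.89) and HBEGF (1.64, 1.05). Further genes against the MEIS2 pair were ICAM1 (0.94, 0.54), IGFBPL1 (-1.03, -0.48), LPL (-2.05, -1.16), MEIS2 (-0.19, 6.09), PCDH9 (-1.56, -1.19), PKNOX2 (-0.80, -1.07), PTX3 (-1.63, -0.98) and TMEM173 (1.53, 0.58). MEIS1 and MEIS2 in their own pairs are the targeted genes.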

How the results depend on the processing

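The counts called in each direction stayed within 1.5 times the values given under other size factors, either filter, DESeq2, the control libraries alone, another prior count, and the alternatives chosen after seeing the data. By definition of the threshold, an adjusted p alone gave 10083 genes (5376 higher, 4707 lower) and a log2 fold change beyond 1 gave 2182 (1467 higher, 715 lower). Without each replicate number in turn, 3886 to 4295 genes were called, 2207 to 2534 higher and 1672 to 1790 lower. The genes near absent from 1 control fell from 38 to 13 with at least 20 counts. Total counts differed by 1649386 in the mean, and by 1021951 to 2241416 with a replicate number left out; without replicate 5 the unadjusted exact permutation p was 0.0476. With replicate number as a block, 4220 genes were called (2442 higher, 1778 lower), and in the MEIS1 and MEIS2 pairs 4445 and 3864. The numbers did not pair the control libraries, since same-numbered libraries had a mean correlation of -0.0156 in their deviations and 0 of 6 pairs were above 0.1. CDKN1A, which was not called, changed sign with library totals alone (0.054). Of 233 named genes that were called, 189 were called under every alternative and 0 changed sign; library totals alone lost 25, the GC correction 16, and leaving out ctrl-OE replicate 6 with ctrl-KO replicate 2 lost 10. The cause was not tested. Depth limits the genes below about 1 CPM, whose folds rest on few counts.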
